A study of Mus musculus with 6 samples.

Results

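These are the stretches of chromatin where only the active of 2 opposing histone marks was called in γδ thymocytes with high Sox13 reporter activity, while both were called in those with low activity. Peaks from 4 histone ChIP-seq lists were merged wherever they overlapped on chromosomes 1 to 19. Members were chosen by the presence or absence of deposited peaks: a merged region was kept if it held trimethylated histone H3 lysine 4 (H3K4me3) in Sox13hi cells, H3K4me3 and trimethylated lysine 27 (H3K27me3) in Sox13lo cells, and no H3K27me3 peak in Sox13hi cells. There were 342 such regions among 37017 merged regions in all, or 0.924%, and they are called the members here.

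H3K4me3 is placed at the starts of active and poised genes by COMPASS-type methyltransferases. H3K27me3 is deposited by Polycomb repressive complex 2 and marks genes held silent. Chromatin with both is called bivalent, a state known from developmental regulators that are silent but can be activated or shut down for good as a lineage is chosen. SOX13, an HMG-box transcription factor that binds the minor groove of DNA, takes part in programming the γδ T cells that make interleukin 17.

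All cells came from C57BL/6 mice of the genotype TCRbeta KO.Sox13 ECFP KI/+, so both populations lacked TCRβ and carried the reporter on 1 Sox13 allele. Thymocytes expressing γδ receptor and CD24 were sorted into Sox13hi (CFPhi) and Sox13lo (CFPlo/-) fractions. SOX13 was mapped in Sox13hi cells only, from 1000000 cells, and each histone mark in both fractions, from 250000 cells per library. The sources used here do not give animal numbers, ages or pooling. Each of the 5 groups is 1 library, so replicate error cannot be estimated for any difference below, and p-values are not given. The sort was not checked against marker genes, because gene positions in mm9, the build of the files, were not used here.

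The Sox13hi lists held 20444 H3K4me3, 14842 H3K27me3 and 13807 SOX13 peaks, and the Sox13lo lists 18471 H3K4me3 and 7395 H3K27me3 peaks. For H3K27me3, the Sox13hi list had 2.01 times as many peaks as the Sox13lo list. Each peak has a score, a number of the authors' own, which the sources used here do not define. It serves only to rank peaks within a list, and a percentile of 100 stands for the highest score of that list. Read depth is unknown.

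Members were a minority of the regions that could have qualified. Of 2145 regions with both marks in Sox13lo and H3K4me3 in Sox13hi, 342 (15.9%) had no Sox13hi H3K27me3 peak and 1803 did. The reverse class, with both marks in Sox13hi and H3K4me3 alone in Sox13lo, had 570 of 2373 (24%). Regions with H3K4me3 alone in both populations numbered 10902. Together these 4 classes make up the 13617 regions with H3K4me3 in both populations, of which the members were 2.51%. The rule fixes these counts, and they are given as a description.

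Members were short. Their median width was 925 bp (95% order-statistic interval 850 to 950), with an interquartile range of 662.5 to 1250 bp and extremes of 400 and 3300 bp. Regions with both marks in both populations had a median of 1300 bp, the reverse class 1100 bp and regions with H3K4me3 alone 1100 bp. The members were therefore the narrowest of the 4 classes at the median. Width follows from the lists that choose the classes, so this order is a description. Most were built from few peaks: 341 of the 342 held a single Sox13hi H3K4me3 peak, 333 a single Sox13lo H3K4me3 peak and 322 a single Sox13lo H3K27me3 peak.

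**Figure D1:**
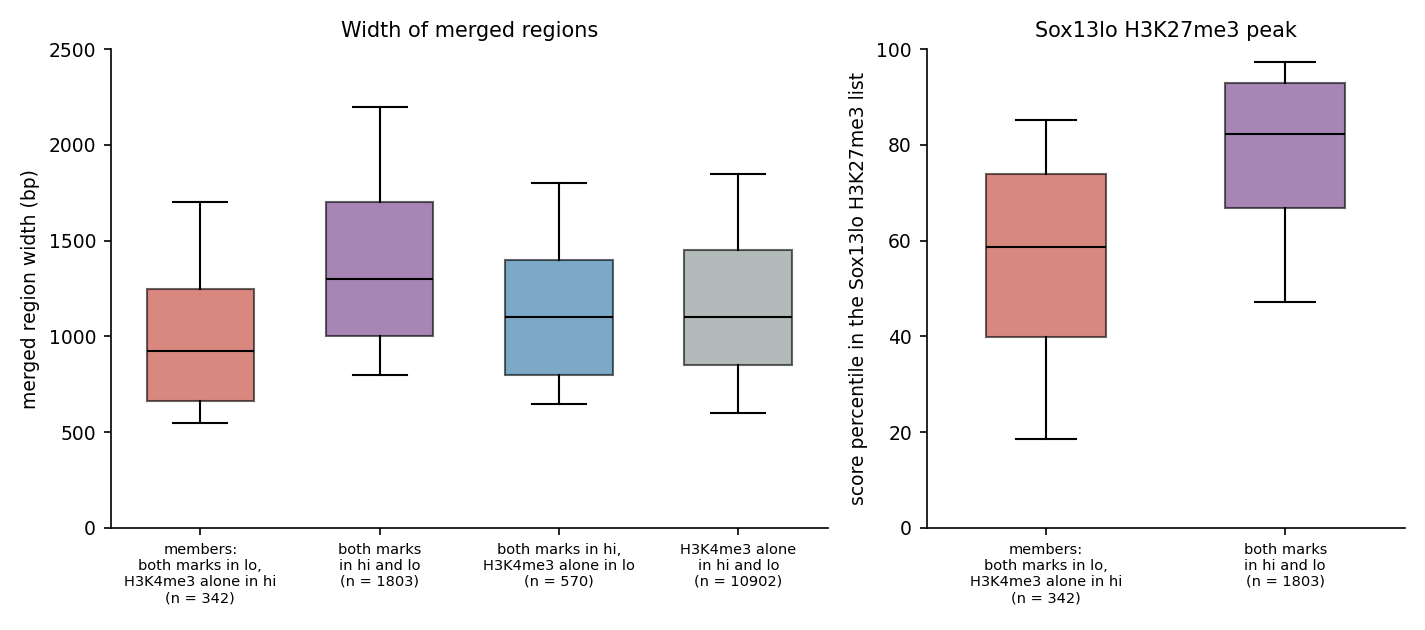
Left, width of merged regions in bp in the 4 classes; right, score percentile of the Sox13lo H3K27me3 peak in the 2 classes that have one (hi, Sox13hi; lo, Sox13lo). Boxes span the interquartile range with the median as a line and whiskers reach the 10th and 90th percentiles; the members have a median width of 925 bp and a median percentile of 58.6, both below those of regions with both marks in both populations (1300 bp and 82.4).

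Within a member the repressive mark usually lay on the active one. In 326 members (95.3%) a Sox13lo H3K27me3 peak overlapped a Sox13lo H3K4me3 peak, and in 329 (96.2%) it overlapped the Sox13hi H3K4me3 peak. In the other 16 the Sox13lo marks did not touch each other and were joined through the Sox13hi H3K4me3 peak. The label "bivalent" therefore rests on contact of the peaks in 326 members and on the merging in 16. A population average cannot tell 2 marks on the same nucleosomes from 2 kinds of cell with 1 mark each.

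The H3K27me3 part of the members was short, and in 193 of 342 it was nested in H3K4me3 by its highest-scoring peak. Sox13lo H3K27me3 peaks covered a median of 350 bp per member (interquartile range 212.5 to 500 bp), against 700 bp in regions with both marks in both populations. The highest-scoring H3K27me3 peak was wholly contained in the highest-scoring Sox13lo H3K4me3 peak in these 193 members (56.4%), against 655 of 1803 regions with both marks in both populations (36.3%). The centres of these 2 peaks were a median of 175 bp apart in members and 200 bp apart in the other class. In 47 members (13.7%) the H3K27me3 centre lay beyond the edge of that H3K4me3 peak. The highest-scoring H3K27me3 peak had a median width of 350 bp in members and 600 bp in the other class. Containment was not compared at equal peak width. The lists belong to the rule, so these contrasts are a description.

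The Sox13lo H3K27me3 peaks of the members ranked in the middle of their list. Their median percentile was 58.6 (54.5 to 62.1), against 82.4 (81.3 to 83.6) in regions with both marks in both populations. Only 19 members (5.56%) had a peak in the top decile, against 608 regions (33.7%) of the other class, and 129 (37.7%) ranked at or below the 50th percentile, against 208 (11.5%). Scores ran from 4.0 to 166.25 with a median of 28.9.

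How often a region lacked the Sox13hi mark changed with that rank. In the top decile of the Sox13lo list, 19 of 627 regions (3.03%, 95% exact binomial interval 1.83 to 4.69%) were members. The share was 15.3% (11.7 to 19.5%) in the eighth decile, 28.8% (22.1 to 36.3%) in the sixth and 54.5% (36.4 to 71.9%) in the lowest, where only 33 regions stood. It did not climb evenly, since the third decile from the bottom held 14 of 55 (25.5%, 14.7 to 39.0%). Both H3K27me3 lists belong to the rule, so these shares and the percentiles above are a description. The intervals here and below treat regions as independent and cover counting error only.

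**Figure D2:**
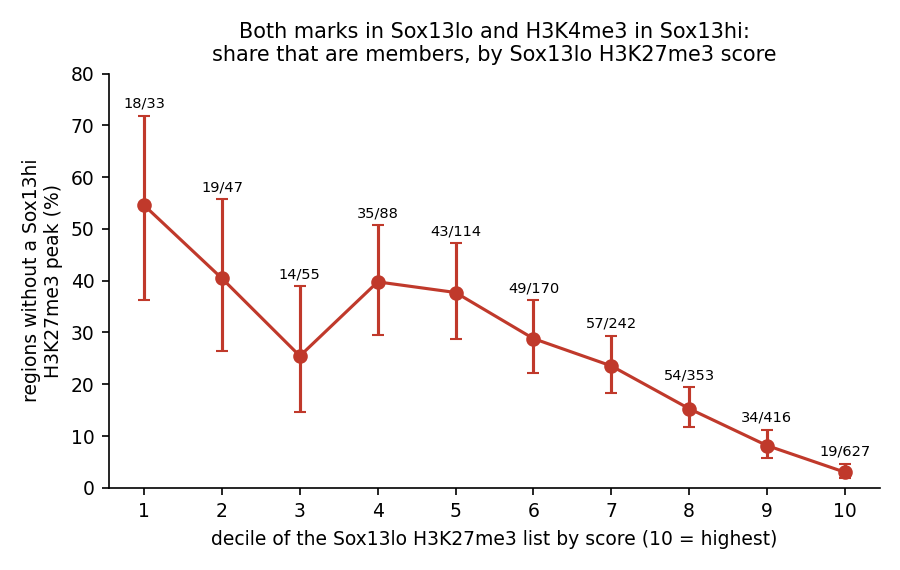
Share in percent of regions with both marks in Sox13lo and H3K4me3 in Sox13hi that had no Sox13hi H3K27me3 peak, by decile of the Sox13lo H3K27me3 score (10, highest), with 95% exact binomial intervals and counts above each point. The share is 3.03% in the top decile and 54.5% in the lowest, a description because both H3K27me3 lists belong to the rule.

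The reverse class also varied with rank. Among the 1000 highest-scoring Sox13lo H3K27me3 peaks, 32 of 774 regions (4.13%, 2.84 to 5.79%) lacked the Sox13hi mark, and among the 1000 highest-scoring Sox13hi peaks 45 of 802 (5.61%, 4.12 to 7.44%) lacked the Sox13lo mark. At ranks 1001 to 2000 the shares were 11.4% (8.84 to 14.5%) for members and 17.5% (14.4 to 20.9%) for the reverse class. At ranks 2001 to 3000 the numbers were 74 of 347 (interval 17.1 to 26.0%) for members and 99 of 367 (22.5 to 31.8%) for the reverse class. At ranks 4001 to 5000 the shares were 43.2% (34.8 to 51.8%) for members and 49.5% (39.6 to 59.5%) for the reverse class. At ranks 5001 to 6000 the shares were 24.7% (15.3 to 36.1%) for members and 52.0% (40.2 to 63.7%) for the reverse class. At ranks 3001 to 4000 and 6001 to 7000 they were 29.2% and 46.0% for members and 37.2% and 57.1% for the reverse class. The member share was the lower one in each of these 7 bands of 1000 ranks, but the bands do not compare like with like. Equal ranks are different percentiles in lists of 7395 and 14842 peaks. Both lists also belong to the rule, so the order of the shares is a description. The list searched for a match was the longer one for members (14842 Sox13hi peaks) and the shorter one for the reverse class (7395 Sox13lo peaks), and these shares were not recomputed with lists of equal length. With equal lengths there were 423 members, against 342 as deposited.

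The member with the highest Sox13lo H3K27me3 score was at chr7:86937451-86939049. Its score of 166.25 ranked 92 of 7395, and its H3K4me3 stood at percentile 73.7 of the Sox13hi list and 62.5 of the Sox13lo list. It also held a SOX13 peak at chr7:86937751-86938199, and the nearest Sox13hi H3K27me3 peak was 1150 bp away. This region thus combined a high-ranking repressive mark in Sox13lo with intermediate H3K4me3 in both populations.

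The next was at chr9:58402201-58403499, with an H3K27me3 score of 129.25, H3K4me3 at percentile 60.1 in Sox13hi and 64.1 in Sox13lo, and the nearest Sox13hi H3K27me3 peak 65200 bp away. The third, at chr15:85651351-85652749, had a score of 119.75, H3K4me3 at 67.7 in Sox13hi and 44.8 in Sox13lo, and such a peak 3000 bp away. The fourth, at chr8:28195551-28197099, scored 115.75, had H3K4me3 at 55.6 in Sox13hi and 68.9 in Sox13lo, held a SOX13 peak and lay 119450 bp from the nearest Sox13hi H3K27me3 peak. All 4 ranked above the 95th percentile of the Sox13lo H3K27me3 list. Among the regions with H3K4me3 in both populations, the H3K4me3 rank was 25.1 points higher in Sox13hi at the chromosome 15 region and, at -23.6 points, lower in Sox13hi at the chromosome 8 region.

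The remaining 6 of the 10 scored between 92.5 and 115.0. They lay at chr16:20590601-20591749, chr16:44558051-44559199, chr2:163993551-163994699 and chr13:36060101-36061599. The last 2 were at chr9:64988551-64989999 and at chr12:32243301-32244499. Their distances from a Sox13hi H3K27me3 peak varied widely. Those on chromosome 13 and at 64988551 on chromosome 9 were 214600 and 15950 bp away from one, and that on chromosome 12 was 9600 bp away. Of those on chromosome 16, the first was 200 bp away and the second directly adjoined one, and the chromosome 2 region was 300 bp away. None of these 6 held a SOX13 peak, whereas 2 of the 4 above did.

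H3K4me3 at the members was of middling to low rank in both populations. The median percentile was 48.7 (45.1 to 52.4) in the Sox13hi list and 42.2 (38.2 to 45.5) in the Sox13lo list. Regions with H3K4me3 alone stood at 69.3 in Sox13hi and 66.6 in Sox13lo, and regions with both marks in both populations at 58.0 in Sox13hi and 49.7 in Sox13lo. The reverse class stood at 55.5 in Sox13hi and 52.3 in Sox13lo. At or below the 50th percentile were 179 members (52.3%) in Sox13hi and 216 (63.2%) in Sox13lo, and 120 (35.1%) were above it in both lists. The members thus had the lowest median H3K4me3 rank of the 4 classes in either population.

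Lists of different length give ranks that cannot be set against each other, so the H3K4me3 peaks were also ranked among the same 13617 regions. On that scale the median member stood at percentile 25.2 in Sox13hi and 23.9 in Sox13lo. The region-by-region difference, Sox13hi minus Sox13lo, had a median of 1.04 points (-0.220 to 2.76). It was above 0 in 185 members (54.1%) and below 0 in 157. These values describe regions of 1 library per population, and regions are not replicates of a population. The same difference was 2.53 points (1.84 to 3.10) in regions with both marks in both populations, -0.402 (-0.947 to 0.415) in the reverse class and -0.525 (-0.687 to -0.364) with H3K4me3 alone. No comparison of these medians was tested, since the H3K4me3 lists belong to the rule.

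**Figure D3:**
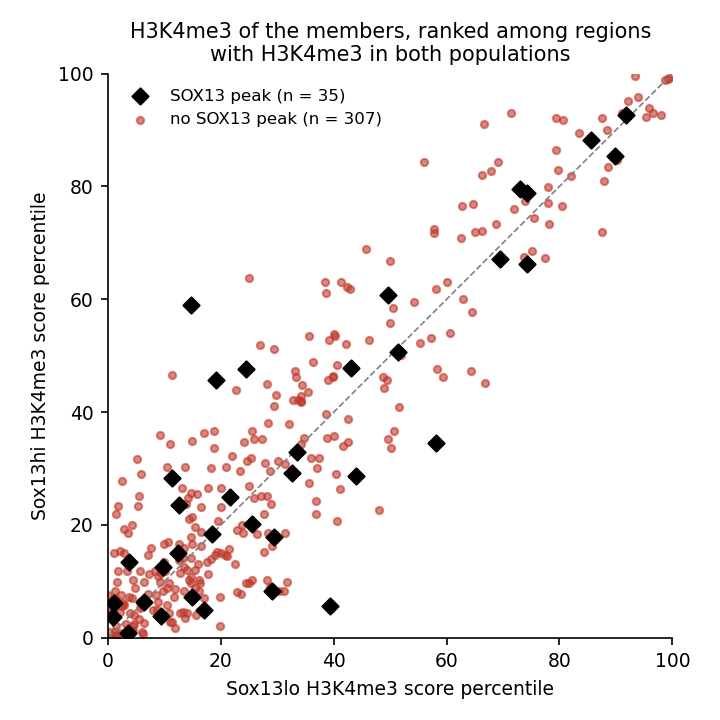
Score percentile of H3K4me3 in Sox13hi (vertical) against Sox13lo (horizontal) for the 342 members, ranked among the 13617 regions with H3K4me3 in both populations; black diamonds hold a SOX13 peak, red circles do not, and the dashed line marks equal percentiles. Members crowd at low percentiles, with medians of 25.2 in Sox13hi and 23.9 in Sox13lo, and 185 of them lie above the line.

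H3K4me3 was broader in Sox13hi more often than in Sox13lo. Peaks covered a median of 800 bp per member in Sox13hi and 700 bp in Sox13lo. They were wider in Sox13hi in 206 members (60.2%), wider in Sox13lo in 96 and equal in 40. With H3K4me3 alone 45.2% were wider in Sox13hi and 39.4% in Sox13lo, and in the reverse class 51.4% and 36.0%. Regions with both marks in both populations had 61.3% and 29.3%. A wider Sox13hi peak was thus not particular to regions without the Sox13hi repressive mark. The score ranks of the 2 populations followed each other across members (Spearman's rho 0.85 over 342 regions), whereas the Sox13lo H3K27me3 score showed almost no relation to the Sox13lo H3K4me3 score (rho -0.02). These are descriptions across regions that share libraries and are not independent replicates.

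Some members had strong H3K4me3. The highest Sox13hi score, 303, was at chr1:138156101-138158349, at percentile 99.7 of the Sox13hi and 95.1 of the Sox13lo list, with Sox13lo H3K27me3 at percentile 80.8. It was followed by chr17:24606601-24608549, with Sox13hi and Sox13lo H3K4me3 percentiles of 99.4 and 99.5 and H3K27me3 at 75.6. These 2 carried a well-ranked repressive peak as well.

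Elsewhere the repressive peak ranked low beside strong H3K4me3. At chr3:51143501-51146049, H3K4me3 stood at 99.4 in both lists and H3K27me3 at 18.0. At chr8:36650551-36652849, H3K4me3 was at 97.2 in Sox13hi and 95.5 in Sox13lo, and H3K27me3 at 27.2. In both of these the H3K27me3 peak did not touch the Sox13hi H3K4me3 peak. The fifth, at chr19:36992751-36993999, had H3K27me3 at 62.1 and H3K4me3 at 99.2 in Sox13hi and 99.0 in Sox13lo. None of these 5 held a SOX13 peak.

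Absence of the Sox13hi H3K27me3 peak often did not extend far beyond the region. A Sox13hi H3K27me3 peak lay within 1 kb of 89 members (26.0%, 21.5 to 31.0%) and within 5 kb of 145 (42.4%, 37.1 to 47.8%). For regions with H3K4me3 alone in both populations, which by rule also lack that peak, the shares were 2.52% (2.24 to 2.83%) and 7.03% (6.55 to 7.52%). The median distance was 14500 bp for members and 54300 bp for regions with H3K4me3 alone. At the other end, 120 members (35.1%) had no Sox13hi H3K27me3 peak within 50 kb, and the farthest was 803750 bp away. As the rule used this list, the distances are a description.

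**Figure D4:**
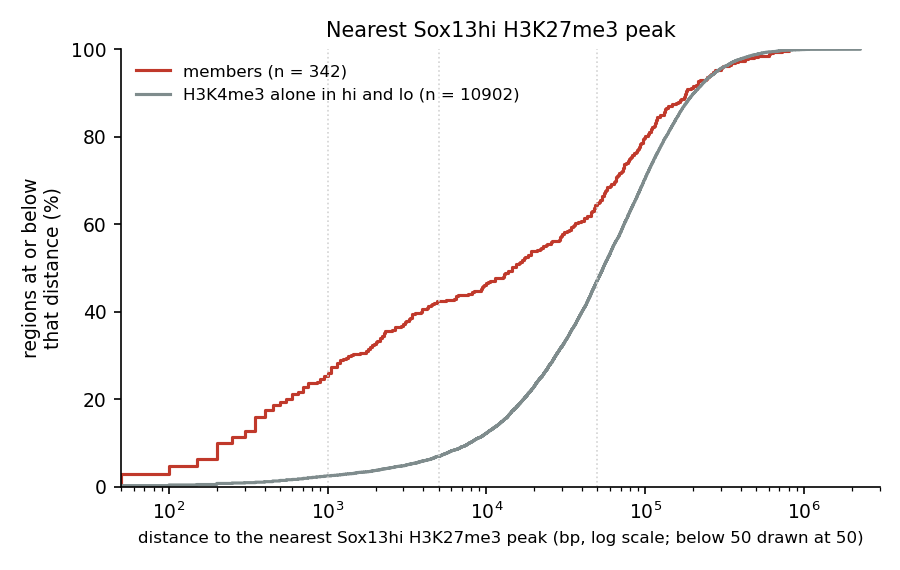
Cumulative share in percent of regions by distance in bp (log axis) to the nearest Sox13hi H3K27me3 peak, for members (red) and regions with H3K4me3 alone in both populations (grey); dotted lines mark 1, 5 and 50 kb. The members' curve lies above the other at short distances, with 42.4% against 7.03% within 5 kb.

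The members differed along that distance. The 89 with a Sox13hi H3K27me3 peak within 1 kb had a median Sox13lo H3K27me3 percentile of 63.6 and a median Sox13hi H3K4me3 percentile of 41.6. The 120 beyond 50 kb had 50.3 and 55.6. At the median, the members within 1 kb thus ranked higher in Sox13lo H3K27me3 and lower in Sox13hi H3K4me3 than those beyond 50 kb. Over all 342 members, the distance and the Sox13lo H3K27me3 score were only weakly related (Spearman's rho -0.19). All these lists belong to the rule, so this is a description, and it was not compared with other classes. Another Sox13lo H3K27me3 peak, outside the region, lay within 5 kb of 103 members (30.1%, 25.3 to 35.3%), against 42.2% (39.9 to 44.5%) of regions with both marks in both populations.

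At the edge of the rule, 6 members directly adjoined a Sox13hi H3K27me3 peak. By Sox13lo H3K27me3 score, the first 5 of them were chr16:44558051-44559199, chr19:41817751-41818299, chr11:6505351-6506049, chr13:56853951-56854799 and chr12:106102751-106103249. Their Sox13lo H3K27me3 peaks stood at percentiles 93.3, 85.2, 84.3, 78.1 and 46.1, in that order. The Sox13hi peaks adjoining these 5 ranked between percentiles 15.2 and 82.7 of their list. Just outside were 4 regions whose Sox13hi H3K27me3 peak overlapped the other peaks by 50 bp, at chr1:34636201-34637249, chr5:144055001-144055949, chr15:94233301-94235249 and chr10:60735651-60736899, and 1 at chr8:59800201-59801199, with 100 bp. The step between the 2 sides is thus a single 50 bp bin of the files' grid.

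Members were spread over all 19 autosomes. Chromosome 7 had the most, 38, or 3.73% (2.65 to 5.08%) of its regions with H3K4me3 in both populations. Chromosome 17 had the lowest share, with 10 members (1.40%, 0.675 to 2.56%). These are the extremes among the 19 autosomes, and the share over all of them was 2.51%. On chromosomes 7 and 8 members outnumbered the reverse class, 38 against 30 and 16 against 13. On each of the other autosomes there were fewer members than regions of the reverse class. The members' share on chromosome 8 was 2.15% (1.24 to 3.47%), below that over all autosomes. Of the members, 319 had no other member within 100 kb, and 23 lay in 11 groups. The same count was not made for other classes or for an equal number of other regions. Whether members lay apart more or less than other regions was therefore not tested. The largest group had 3 members, at chr10:60845601-60939499. The tightest pairs spanned 3600 bp each, at chr11:103221501-103225099 and at chr2:91895601-91899199.

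SOX13 peaks were not used by the rule. In Sox13hi cells 35 of the 342 members overlapped a SOX13 peak, 10.2% (7.23 to 13.9%), where all 13617 regions with H3K4me3 in both populations gave 10.2% and all merged regions 6.2%. The share was thus at the level of regions with H3K4me3 in both populations. Regions with both marks in both populations had SOX13 in 13.1% (11.6 to 14.7%), the reverse class in 9.12% (6.89 to 11.8%) and regions with H3K4me3 alone in 9.77% (9.22 to 10.3%).

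None of the 3 differences from the members was detectable at these numbers of regions. Members minus regions with both marks in both populations gave -2.86 percentage points (95% Newcombe-type interval -6.28 to 1.16). Members minus the reverse class gave 1.11 points (-2.91 to 5.44), and members minus regions with H3K4me3 alone 0.465 points (-2.59 to 4.22). With the other class standardised to the members' widths the differences were -1.90, 1.53 and 0.00169 points, each with an interval that includes 0. Without that standardisation, the interval against both marks in both populations allows a share several points lower in members but at most 1.16 points higher. Those against the reverse class and H3K4me3 alone allow differences of several points in either direction. Against all other merged regions, most of which lack H3K4me3 in at least 1 population, the difference was 4.07 points (1.06 to 7.79).

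**Figure D5:**
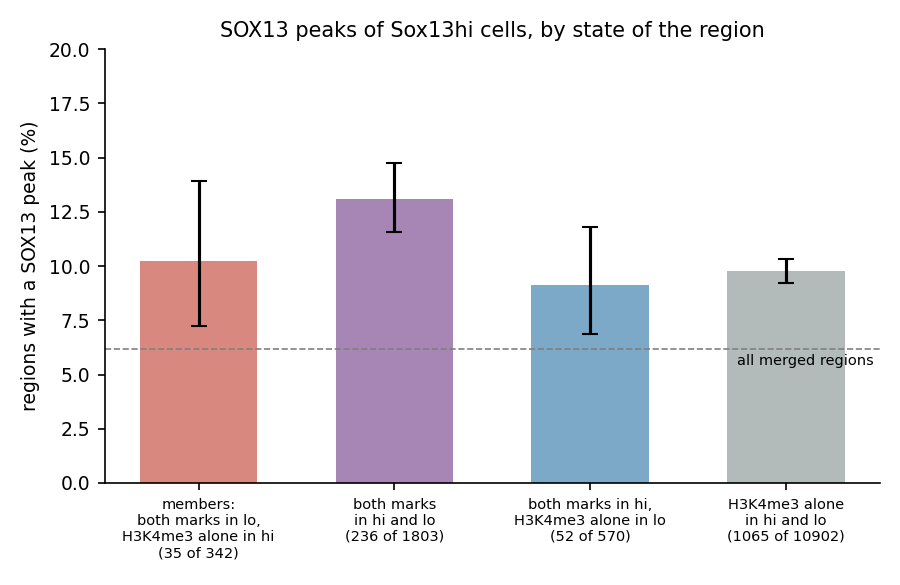
Share in percent of regions overlapping a SOX13 peak of Sox13hi cells, for members and the 3 other classes with H3K4me3 in both populations (hi, Sox13hi; lo, Sox13lo). Error bars are 95% exact binomial intervals, and the dashed line is the 6.2% of all merged regions; the members stand at 10.2%, with an interval that overlaps those of the other 3 classes.

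The SOX13 peaks in members lay near the middle of the region and on H3K4me3. Each of the 35 members held 1 SOX13 peak, and all 35 peaks overlapped the H3K4me3 peak of Sox13hi and that of Sox13lo. The centre of the SOX13 peak was a median of 125 bp from the centre of the region (interquartile range 50 to 237.5 bp, at most 700 bp). In 29 of the 35 (82.9%, 66.4 to 93.4%) the peak also overlapped the H3K27me3 peak of Sox13lo, against 204 of 236 (86.4%, 81.4 to 90.5%) in regions with both marks in both populations. SOX13 was mapped in the Sox13hi fraction, so this overlap joins positions in different cells. The 35 regions had a median width of 850 bp and their SOX13 peaks one of 400 bp, so there was little room for other positions. Overlap with H3K4me3 and distance from the centre were not compared with other classes.

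These SOX13 peaks ranked fairly high in their own list, with a median percentile of 80.9 (75.4 to 90.3), 12 in the top decile and 7 at or below the 50th percentile. The median was the same, 80.9 (78.2 to 83.1), for SOX13 at regions with H3K4me3 alone, and 76.9 (73.8 to 80.9) where both marks were present in both populations. In the reverse class it was 77.5 (69.8 to 85.7). The top decile held 34.3% of these peaks in members, 33.3% with H3K4me3 alone, 30.8% in the reverse class and 22.9% with both marks in both populations. The rank of SOX13 was therefore not particular to the members either.

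The strongest SOX13 peak in a member was in the region chr1:173461251-173462099. The peak, at chr1:173461051-173462049, scored 38.75 and ranked 118 of 13807. The region had H3K4me3 at percentile 32.5 in Sox13hi and 46.5 in Sox13lo, H3K27me3 at 82.5 in Sox13lo, and a Sox13hi H3K27me3 peak 1450 bp away. Ranked among regions with H3K4me3 in both populations, its H3K4me3 was 20.7 points lower in Sox13hi than in Sox13lo, at 8.33 against 29.0.

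The second, at chr3:98747951-98748549, had a SOX13 peak with a score of 20.75 that covered the whole 600 bp of the region. The third was at chr5:106397601-106398149, with a score of 18.75, and the fourth at chr8:108042051-108043299, with 17.5. These 3 regions lay 29900, 15350 and 46400 bp from the nearest Sox13hi H3K27me3 peak, farther than the first.

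The other 6 of the 10 highest SOX13 scores were between 15.25 and 17.25. They were at chr15:100747801-100748449, chr9:31018301-31020049, chr11:80290151-80291699 and chr11:109582301-109583849, chr2:126378251-126379399, and the chromosome 7 region that also had the highest H3K27me3 score. In 3 of them, those on chromosomes 15 and 2 and the first on chromosome 11, the SOX13 peak did not touch the Sox13lo H3K27me3 peak. H3K4me3 in these 6 ranged from percentile 42.6 to 90.3 in Sox13hi and from 42.7 to 92.4 in Sox13lo. The other 25 members with SOX13 are covered by the ranges above.

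SOX13 was then compared within the members, in splits chosen after the data were seen. It was present at 9 of 145 members within 5 kb of a Sox13hi H3K27me3 peak (6.21%, 2.88 to 11.5%) and at 26 of 197 farther away (13.2%, 8.81 to 18.7%). The difference was -6.99 points (-13.5 to -0.147), with an upper end close to 0, and no adjustment was made for the 6 splits tried. The splits at the median of width, of the Sox13lo H3K27me3 score and of the H3K4me3 score in either population gave differences from -2.92 to 1.75 points with intervals that include 0. Members whose Sox13lo marks touched had SOX13 in 10.4% and the 16 others in 1 case, too few to compare. Within 5 kb of a member but outside it, a SOX13 peak was found for 31 more members (9.06%, 6.24 to 12.6%), against 9.15% of regions with both marks in both populations and 7.46% with H3K4me3 alone.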

How the data were processed

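The authors deposited 1 peak list per ChIP library (SOX13 in Sox13hi cells; H3K4me3 and H3K27me3 in Sox13hi and Sox13lo cells), giving positions and 1 score per peak. The deposited score is the authors' own value; the sources used here name neither its definition nor the aligner, caller, threshold or control. Positions are in mm9, according to the submitters' processing notes. Cells were fixed with 1% formaldehyde and libraries amplified for 17 cycles, per the labels' protocols. An input library is listed and was not used here, so enrichment without an antibody was not examined.

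Peak starts were multiples of 50 bp and ends 1 bp below such a multiple. Widths were counted in whole bins, with both deposited ends included. Printed starts count from 1 and ends are those deposited, so a printed interval is 1 bp shorter than its stated width. Histone peaks overlapping by at least 1 bp were merged on chromosomes 1 to 19, and the highest-scoring peak of a list stood for the region. Distances count the bases between a region and a peak. SOX13 overlap was at least 1 bp. Shares carry 95% exact (Clopper-Pearson) intervals, medians order-statistic intervals, and differences of shares a Newcombe-type interval built from exact ones. With 1 library per group there was no p-value.

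Regions named are the 10 members with the highest Sox13lo H3K27me3 score, the 5 with the highest Sox13hi H3K4me3 score, the 10 with the highest SOX13 score, the 5 nearest to a Sox13hi H3K27me3 peak and the 5 regions just outside the rule. The closest groups of members were named after their values were seen. The members, classes and alternatives were chosen with earlier results of these data known. Genes, sequence and motifs were not analysed, because the reference held is in GRCm38 and positions were not moved between builds.

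Software was Python 3.11.15 with pandas 2.3.3, NumPy 2.4.6, SciPy 1.17.1 and matplotlib 3.10.9. The merging was tested on simulated data, and bedtools 2.31.1 gave the same 37017 regions and 342 members. Alternatives were another overlap, joining within 1 kb, score limits, equal list lengths, stricter definitions of absence and of both marks, all chromosomes, and standardised widths.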

Additional observations from a re-analysis of the deposited data

How the results depend on the processing

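The number of members was 342 as reported and between 253 and 423 under 6 of 8 alternatives. It was 83 with only the top 50% of each list by score, which removes peaks by construction, and 197 without the regions that have a Sox13hi H3K27me3 peak within 5 kb. With the 2 lists of each mark cut to equal length by score, which shortens the Sox13hi H3K27me3 list, it was 423. It was 357 on all chromosomes and 253 with no Sox13hi H3K27me3 peak within 1 kb, an alternative added after seeing the data. The median width of 925 bp became 1150 bp with peaks within 1 kb joined, 1300 bp in the top 50% and 1000 bp with the 5 kb limit. The median Sox13lo H3K27me3 percentile of 58.6 became 50.8, 73.9 and 54.0 in these 3 settings, in that order. Beyond the effects built into these settings the cause was not tested. The share of members with SOX13 stayed between 9.97% and 13.2%. All 27 alternative values of the 3 differences in SOX13 share had intervals that include 0. With the 5 kb limit, members minus regions with both marks in both populations was 0.109 points, against -2.86 as reported. No paired analysis was possible because there is a single library per group, which also means that no replicate could be left out. Read depth is unknown, so whether a peak missing from a list reflects depth or threshold was not tested.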
